A study of Mus musculus with 30 samples.

Results

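Knockdown of p53 was set directly against knockdown of lincRNA-p21 in DNA-damaged mouse embryonic fibroblasts. The comparison used 6 of the 30 arrays analysed, taken by their titles from the hnRNPKKD experiment: 3 arrays of cells that received siRNA against p53 (siP53) and 3 of cells that received siRNA against lincRNA-p21 (siLincp21). Both groups came from p53 LSL/LSL fibroblasts of C57BL/6 x 129SvJ embryos taken at E13.5 (embryonic day), in which a removable stop cassette keeps p53 off. Both were treated alike with an adenovirus carrying Cre recombinase (AdenoCRE) for 24 h, which restores p53, then with siRNA for 24 h and with 100 nM doxorubicin, a topoisomerase II poison that breaks DNA, for 13 h. The 3 control siRNA arrays of the same experiment stayed out of the fit, and their values are given only to place the siRNA groups. The labels name siRNA oligos in the plural and do not say whether replicates came from separate embryos or cultures, so the p-values measure the spread between these arrays, which may be technical.

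p53 is a transcription factor that is stabilised by DNA damage and switches on genes of cell cycle arrest, DNA repair and apoptosis. One of its best known targets in fibroblasts is Cdkn1a, which encodes the kinase inhibitor p21, and p21 lets the retinoblastoma family and the DREAM complex shut off genes of DNA synthesis and mitosis. lincRNA-p21 is a long noncoding RNA transcribed next to Cdkn1a under the control of p53. The study asked which part of the p53 response, and of gene repression above all, depends on this RNA, so genes that differ between the siRNA groups are those on which the knockdowns do not act alike. The transcripts of p53 and lincRNA-p21 themselves are not analysed here, so the depth of either knockdown was not measured.

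Levels are log2 RMA signal per gene, and differences are siP53 minus siLincp21 on that log2 scale with their standard error (SE), so that a positive difference means higher with siP53. Calls were made with limma at an adjusted p below 0.05, with Benjamini-Hochberg adjustment over all 12674 tested genes. With siP53, 1614 genes were higher (12.7% of the genes tested) and 2022 were lower (16%), together 3636 genes or 28.7%. At least 2-fold differences were called for 444 genes that were higher (3.5%) and 634 that were lower (5%), and at least 4-fold differences for 23 and 144 genes. Called differences ranged from 3.13 down to -5.59, and the median over all tested genes was -0.02. In 5473 genes (43.2%) the 3 siP53 arrays did not overlap with the 3 siLincp21 arrays.

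The siP53 array of replicate 2 stood apart. Its root mean square distance to the other siP53 arrays was 0.378 and 0.513, against 0.232 between those and 0.179 to 0.248 among the siLincp21 arrays, while arrays of different groups lay 0.573 to 0.744 apart. Its differences ran the same way and were smaller: the median difference from the siLincp21 mean over 54 p53 targets was -1.90 on that array, with -2.23 and -2.16 on replicates 1 and 3. Without it 5803 genes were called. Leaving out siP53 replicate 1, siLincp21 replicate 1 or siLincp21 replicate 2 instead gave 2297, 2298 and 2372 calls. All 96 named genes that were called remained so without siP53 replicate 2.

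The defining markers of fibroblasts were present. All 10 fibroblast markers were tested, with group means of 8.35 to 14.39 on the siP53 arrays and 7.84 to 14.52 on the siLincp21 arrays, and 3 of them were called higher with siP53 (Dcn, Lum and S100a4); 1 was called without siP53 replicate 1 or siLincp21 replicate 2 or 3, and 5 without siP53 replicate 2. Of 8 macrophage markers 5 were tested and Cd68 was lower with siP53 (-2.54). The other 4 tested markers were not called (Lyz2, Csf1r, Tyrobp and Fcer1g). Their means were 4.79 to 5.39 with siP53 and 4.88 to 5.39 with siLincp21. Ptprc, Itgam and Adgre1 lay below the filter limit of 4.544. The summed linear signal of all 8 markers, untested ones included, was 201.4 to 280.1 on the siP53 arrays, against 385.9 to 481.8 on the siLincp21 arrays. Most of that gap came from Cd68 alone, with log2 means of 5.53 with siP53 and 8.07 with siLincp21. Of 7 epithelial markers 5 were tested and Krt7 and Krt19 were lower (-0.71 and -1.16). Krt8 (3.97 with siP53 and 4.01 with siLincp21), Krt18 (4.74 and 4.88) and Epcam (6.83 and 6.80) were not called, and Cdh1 lay below the limit. The sums over all 7 markers were 670.1 to 984.2 on the siP53 arrays and 1328 to 1568 on the siLincp21 arrays. Most of this gap came from Krt19, with log2 means of 9.13 with siP53 and 10.30 with siLincp21. The endothelial markers Pecam1 and Cdh5 lay below the limit too. Among the tested endothelial, muscle, neural, adipocyte and chondrocyte markers, Kdr and Acta1 were higher and Sox2 and Col2a1 lower; without siP53 replicate 1 or siLincp21 replicate 2 or 3 neither Acta1 nor Col2a1 was called, and Acta1 was not called without siLincp21 replicate 1. The part of these markers in the results was not tested. RNA came from whole cultures, so fewer cells of a kind and less RNA per cell cannot be told apart.

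The gene lists given here and below were chosen with earlier results of these data known, so their counts are descriptions. The p53-activated targets were the group with the lowest median. Of 55 listed genes 54 were tested: 50 were lower with siP53 (92.6%, against 16% of all tested genes), 1 was higher and 3 were not called, with a median difference of -2.08, a range of -4.17 to 0.63, and 44 to 50 called lower when any 1 array was left out. The mean log2 level of the list was 8.17, 8.56 and 8.19 on the siP53 arrays, and 10.30, 10.31 and 10.29 on the siLincp21 arrays. The control arrays lay at 10.08, 9.81 and 10.05, closer to siLincp21, and the control minus siLincp21 median was -0.29. The higher gene was Tigar, an inhibitor of glycolysis (0.63), which was called only in the full set and without siP53 replicate 2. The genes Rrm2b (-0.38), Trim12c (-0.09) and Sesn1 (-0.04) did not pass; these 4 were named after their values were seen, as were all genes named below because they make up a count of 5 or fewer.

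Cdkn1a measured 10.52, 11.41 and 10.61 on the siP53 arrays, and 13.73, 13.81 and 13.86 on the siLincp21 arrays. The control arrays were at 13.53, 13.43 and 13.51. The groups were wide apart (-2.95, SE 0.22, adjusted p = 8.33e-05), and a second probe set of the gene gave -3.96. The 100 bases before an upstream start site of Cdkn1a are shown because they hold a pair of the 6-letter cores of p53 half-sites (ACATGT, in capitals), separated by 4 bases, at chr17:29090879-29090978 on the plus strand (RefSeq, GRCm38.p6).
Cdkn1a: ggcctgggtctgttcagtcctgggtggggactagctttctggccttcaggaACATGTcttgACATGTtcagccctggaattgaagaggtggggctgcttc
This core, which reads the same on both strands, was in 3 of the 63 promoter windows of 300 bases that RefSeq gives for 43 of the tested targets (4.76%), against 5.28% of all 32851 promoter windows and 2.49% of those of the tested genes. Windows of this kind do not reach introns or distant sites.

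Of the targets, 4 with the smallest adjusted p are given here; Trp53inp1, a p53-induced nuclear protein (-2.49), shared the adjusted p of the last of them. Ddit4l, a relative of the mTORC1 inhibitor REDD1, measured 7.51, 7.86 and 7.67 on the siP53 arrays, and 10.42, 10.56 and 10.64 on the siLincp21 arrays (-2.86, SE 0.13, adjusted p = 2.34e-05). Sesn2, a sestrin that restrains mTORC1, measured 7.60, 7.92 and 7.70 with siP53, and 10.21, 10.19 and 10.30 with siLincp21 (-2.49, SE 0.12, adjusted p = 2.55e-05). Slc19a2, a thiamine transporter, differed by -2.46 (SE 0.12), and Abcb1a, a drug efflux pump of which doxorubicin is a substrate, by -2.29 (SE 0.11). The groups did not overlap in any of these 4 genes, which were picked by adjusted p on the same arrays, as in 43.2% of all tested genes.

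Genes of cell death were lower more often than higher. Of 29 tested genes 13 were lower with siP53 (44.8%, against 16% of all tested genes) and 3 higher (10.3%, against 12.7%), with a median of -0.38. The lower count was 8 without siP53 replicate 1, and the higher count was 1 without siP53 replicate 1, siLincp21 replicate 1 or siLincp21 replicate 2. Fas, a death receptor, measured 7.54, 8.10 and 7.32 on the siP53 arrays, and 10.95, 10.63 and 10.46 on the siLincp21 arrays (-3.03, SE 0.22, adjusted p = 7.3e-05). The control arrays (9.96, 9.32 and 9.89) lay below those of siLincp21. Perp, a membrane protein of p53-dependent apoptosis, measured 7.62, 8.17 and 7.92 with siP53, and 10.83, 10.73 and 10.69 with siLincp21 (-2.85, SE 0.15). Pmaip1, which encodes the BH3-only protein Noxa, measured 6.16, 6.43 and 6.06 with siP53, and 8.29, 8.31 and 8.30 with siLincp21 (-2.08, SE 0.12). Its control arrays (9.34, 8.65 and 9.25) lay above both groups, as did those of Perp (11.29, 11.01 and 11.23). Apaf1, the scaffold of the apoptosome, differed by -2.01 (SE 0.12). This list overlaps with the p53 targets. Fas, Perp, Pmaip1 and Apaf1, and the lower genes Bbc3, Bcl2l1, Tnfrsf10b and Aen, stand in both. The lower genes outside the p53 targets were Casp6 (-0.97), Mcl1 (-0.61), Bcl2l11 (-0.51), Tnfrsf1a (-0.50) and Bcl2l2 (-0.47). The 3 higher genes were Aifm1 (0.77), Birc3 (0.54) and Fadd (0.39).

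Several regulators of p53, which p53 itself is known to induce, were lower with siP53. The list as a whole moved both ways, with a median of 0.03. Of 26 tested genes 8 were lower with siP53 (30.8%, against 16% of all tested genes) and 7 higher (26.9%, against 12.7%). The 4 genes given here have the smallest adjusted p, and all of them were lower. Mdm2 and Ccng1 also stand among the p53 targets. Mdm2, the ubiquitin ligase that degrades p53, measured 8.55, 9.74 and 8.65 on the siP53 arrays, and 12.25, 12.29 and 12.23 on the siLincp21 arrays (-3.28, SE 0.29, adjusted p = 0.000159), and its other probe sets differed by -3.46 to -0.57. Ppm1d, the phosphatase Wip1, differed by -1.52 (SE 0.10), Rchy1, the ubiquitin ligase Pirh2, by -1.27 (SE 0.16) and Ccng1, cyclin G1, by -1.10 (SE 0.11). Other probe sets of Ccng1 differed more, by -2.54 to -2.32, and its control arrays (13.97, 13.61 and 13.89) overlapped with those of siLincp21. The counts were smaller without siP53 replicate 1, siLincp21 replicate 1 or siLincp21 replicate 2, with 5 lower and 3 higher each time, and there were 5 lower without siLincp21 replicate 3 and 4 higher without siP53 replicate 3.

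**Figure D1:**
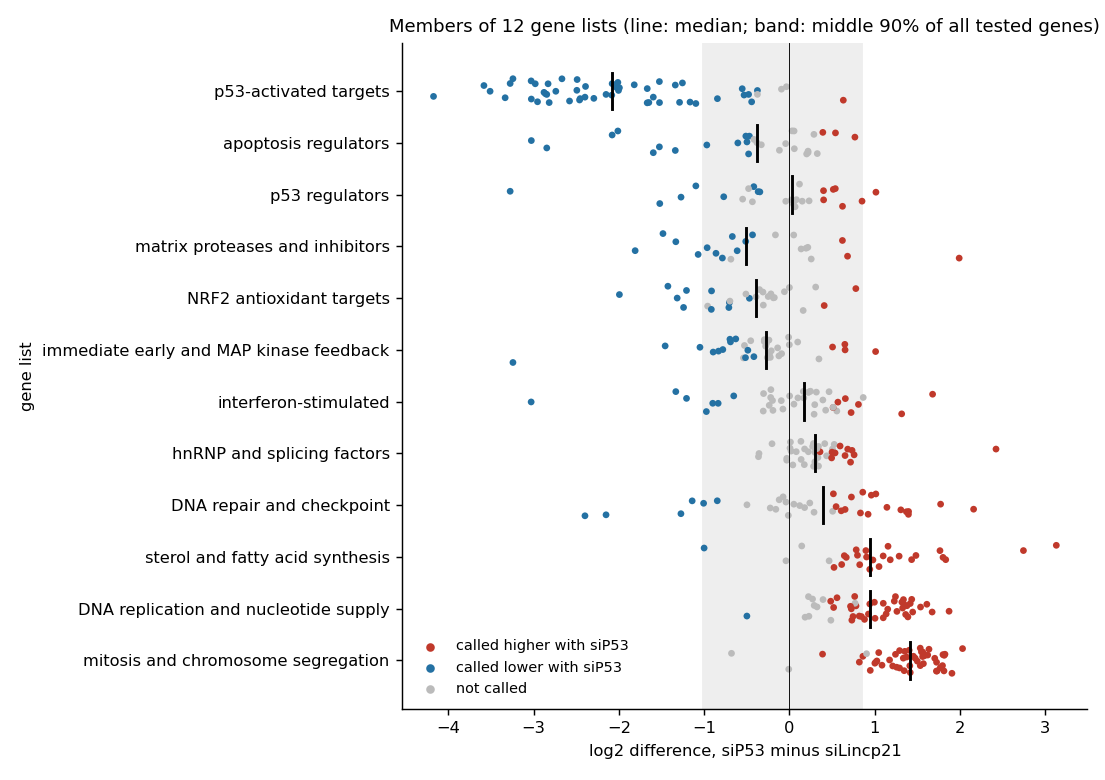
Difference between siP53 and siLincp21 (horizontal axis, log2) for every tested member of 12 gene lists (rows). Red and blue points are members called higher and lower with siP53, grey points were not called, black lines are list medians and the grey band holds the middle 90% of all tested genes (-1.01 to 0.85). The p53-activated targets lie to the left with a median of -2.08, and the mitotic genes to the right with a median of 1.42.

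Genes that carry cells through mitosis were higher with siP53 almost throughout. Of 49 tested genes 46 were higher (93.9%, against 12.7% of all tested genes) and none was lower; without any 1 array 43 to 46 were higher, and 1 was lower without siP53 replicate 2. The median was 1.42. The mean log2 level of the list was 9.77, 9.71 and 9.79 on the siP53 arrays, and 8.45, 8.38 and 8.43 on the siLincp21 arrays. The control arrays lay between the groups at 8.78, 9.04 and 8.81. The siP53 minus control median was 0.99 and the control minus siLincp21 median 0.45. The 3 genes that did not pass were Ube2c (0.90), Ccnf (-0.01) and Kifc1 (-0.68).

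Cep55, which ends cytokinesis by abscission, measured 10.65, 10.35 and 10.57 on the siP53 arrays, and 8.49, 8.44 and 8.55 on the siLincp21 arrays (2.03, SE 0.12, adjusted p = 3.33e-05). The control arrays lay at 9.46, 9.60 and 9.38. Top2a, the topoisomerase II that doxorubicin traps on DNA, measured 10.60, 10.70 and 10.71 with siP53, and 9.07, 9.08 and 9.10 with siLincp21 (1.58, SE 0.10, adjusted p = 4e-05). Racgap1, a part of the centralspindlin complex, differed by 1.80 (SE 0.11), and Nek2, a kinase that separates centrosomes, by 1.73 (SE 0.11). In these 4 genes, picked by adjusted p on the same arrays, the siP53 and siLincp21 arrays did not overlap, as in 43.2% of all tested genes. Probe sets of Top2a, Racgap1 and Nek2 with lower signal gave differences down to 0.12, 0.01 and 0.02.

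Genes of DNA replication and nucleotide supply were also higher with siP53. Of 47 tested genes 37 were higher (78.7%, against 12.7% of all tested genes), 1 was lower (2.13%, against 16%) and 9 were not called. The median was 0.94, and 30 to 39 were called higher when any 1 array was left out. The mean log2 level of the list was 9.34, 9.36 and 9.35 on the siP53 arrays, and 8.47, 8.40 and 8.39 on the siLincp21 arrays, with the control arrays at 8.73, 8.88 and 8.74. The lower gene was Rrm2, a subunit of ribonucleotide reductase (-0.50), which was not called without siP53 replicate 1 or without any 1 of the siLincp21 arrays. Asf1b, a histone chaperone of the replication fork, measured 9.44, 9.46 and 9.54 with siP53, and 7.91, 7.85 and 7.84 with siLincp21 (1.61, SE 0.10, adjusted p = 3.93e-05). Its control arrays (7.86, 8.44 and 7.79) overlapped with those of siLincp21. Mcm10, which helps to start replication, differed by 1.36 (SE 0.11), and Gins1, a subunit of the replicative helicase, by 1.32 (SE 0.11), while other probe sets gave 0.24 and 0.74 for Mcm10 and 0.38 for Gins1. Pola1, the catalytic subunit of polymerase alpha, differed by 1.67 (SE 0.13) on its brightest probe set and by -0.02 on another.

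Promoters of these genes are shown because the cell cycle genes moved together. The letters searched on both strands were TTTGAA, the core of the cell cycle genes homology region (CHR) that the DREAM complex binds, CCAAT, the box bound by NF-Y, and TTTGGCGC or TTTCCCGC, which are E2F motifs. Matches were counted for each motif on its own, also where their ends could overlap. Capitals mark the matches, with ATTGG and TTCAAA as the reverse strand forms, and all sequences are from RefSeq (GRCm38.p6), read upstream of the start site. Top2a is at chr11:99024190-99024429 on the minus strand, Asf1b at chr8:83955484-83955693 on the plus strand and Dtl, of the CRL4 ubiquitin ligase that destroys the licensing factor Cdt1, at chr1:191575545-191575604 on the minus strand.
Top2a: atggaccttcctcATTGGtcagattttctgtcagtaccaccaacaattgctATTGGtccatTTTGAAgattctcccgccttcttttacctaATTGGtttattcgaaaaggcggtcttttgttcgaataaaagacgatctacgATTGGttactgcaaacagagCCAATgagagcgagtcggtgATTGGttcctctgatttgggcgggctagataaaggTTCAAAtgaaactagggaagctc
Asf1b: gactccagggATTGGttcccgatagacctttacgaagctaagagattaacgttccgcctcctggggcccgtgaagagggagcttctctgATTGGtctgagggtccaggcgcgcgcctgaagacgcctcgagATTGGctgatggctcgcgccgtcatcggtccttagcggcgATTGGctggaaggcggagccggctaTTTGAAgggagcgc
Dtl: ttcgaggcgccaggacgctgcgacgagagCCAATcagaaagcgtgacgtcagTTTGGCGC
The 42 mitotic genes with a promoter in the table had 45 windows of 300 bases. TTTGAA was in 71.1% of them, against 17.9% of all promoter windows and 12% of those of the tested genes. CCAAT was in 71.1% as well, against 37.4% and 37.5%, and none held an E2F motif. Of the 45 windows of 38 replication genes 24.4% held an E2F motif, against 1.56% and 2.78%, while 17.8% held TTTGAA and CCAAT was in 55.6%. The NF-Y box was not limited to cell cycle genes: it was in 71.4% of the 28 windows of sterol genes and 47.6% of those of p53 targets, where TTTGAA was in 10.7% and 7.94%. Over the genes called at least 2-fold higher with siP53, 23.8% of 441 windows held TTTGAA and 51.2% held CCAAT. A match describes these letters only and is not a measured site.

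Cyclins, their inhibitors and the E2F family moved both ways, with a median of 0.08. Of 34 tested genes 11 were higher with siP53 (32.4%, against 12.7% of all tested genes) and 8 lower (23.5%, against 16%). E2f7, a repressive E2F that is itself an E2F target, measured 9.43, 8.93 and 9.55 on the siP53 arrays, and 7.41, 7.37 and 7.65 on the siLincp21 arrays (1.83, SE 0.18, adjusted p = 0.000254). Rb1, the retinoblastoma protein, measured 8.22, 8.38 and 8.41 with siP53, and 10.34, 10.30 and 10.46 with siLincp21 (-2.03, SE 0.11, adjusted p = 2.73e-05). The control arrays of Rb1 (8.74, 8.24 and 8.56) overlapped with those of siP53, and its other probe set differed by 0.18. Rb1 also stands among the p53 targets. E2f5 differed by -1.48 (SE 0.14), with other probe sets at -1.22 and -0.01.

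**Figure D2:**
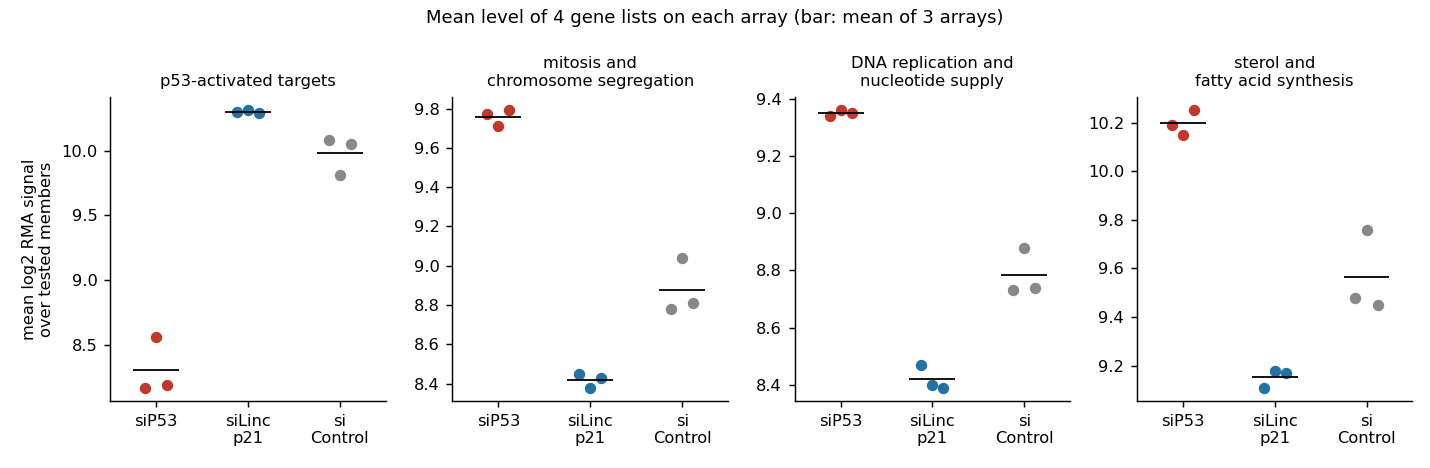
Mean log2 RMA signal (vertical axis) over the tested members of 4 gene lists on each array of the siP53, siLincp21 and siControl groups. Points are arrays and bars are means of 3 arrays, and each panel has its own axis range. The siP53 and siLincp21 arrays do not overlap in any panel, and the control arrays lie between them in all 4.

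DNA repair and checkpoint genes were higher more often than lower. Of 36 tested genes 17 were higher with siP53 (47.2%, against 12.7% of all tested genes) and 6 lower (16.7%, close to the 16% of all), with a median of 0.40. Ercc5, the nuclease XPG of nucleotide excision repair, measured 7.38, 7.62 and 7.61 on the siP53 arrays, and 9.83, 9.84 and 10.13 on the siLincp21 arrays (-2.40, SE 0.13, adjusted p = 2.73e-05), and another probe set differed by -0.84. Polk, a translesion polymerase, differed by -2.15 (SE 0.12). Both Ercc5 and Polk also stand among the p53 targets. Exo1, an exonuclease of mismatch repair and end resection, measured 8.09, 7.83 and 8.28 with siP53, and 6.32, 6.14 and 6.42 with siLincp21 (1.77, SE 0.14, adjusted p = 0.000111). Its other probe sets differed by 0.22 and 1.57. Clspn, the adaptor that activates the checkpoint kinase Chk1, differed by 1.39 (SE 0.11).

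Sterol and fatty acid synthesis was another group that was higher with siP53. Of 27 tested genes 23 were higher (85.2%, against 12.7% of all tested genes), 1 was lower (3.7%, against 16%) and 3 were not called. The median was 0.94, and 19 to 24 were called higher when any 1 array was left out. The mean log2 level of the list was 10.19, 10.15 and 10.25 on the siP53 arrays, and 9.11, 9.18 and 9.17 on the siLincp21 arrays, with the control arrays at 9.48, 9.76 and 9.45. Elovl6, a fatty acid elongase, had the largest difference of all genes higher with siP53. It measured 10.05, 9.82 and 10.12 with siP53, and 6.72, 7.07 and 6.81 with siLincp21 (3.13, SE 0.14, adjusted p = 2.34e-05), with the control arrays between at 8.68, 8.93 and 8.44 and other probe sets at 0.11 to 3.24. Stard4, which carries cholesterol between membranes, measured 9.74, 9.49 and 9.99 with siP53, and 6.80, 6.93 and 7.26 with siLincp21 (2.74, SE 0.17, adjusted p = 4.16e-05). Idi1, which makes the isoprenoid building block dimethylallyl diphosphate, differed by 1.80 (SE 0.11), and Sqle, which oxidises squalene, by 1.43 (SE 0.10). The lower gene was Acss2, which makes acetyl-CoA from acetate (-1.0), and Srebf1 (0.47), Acly (0.14) and Insig2 (-0.04) did not pass.

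**Figure D3:**
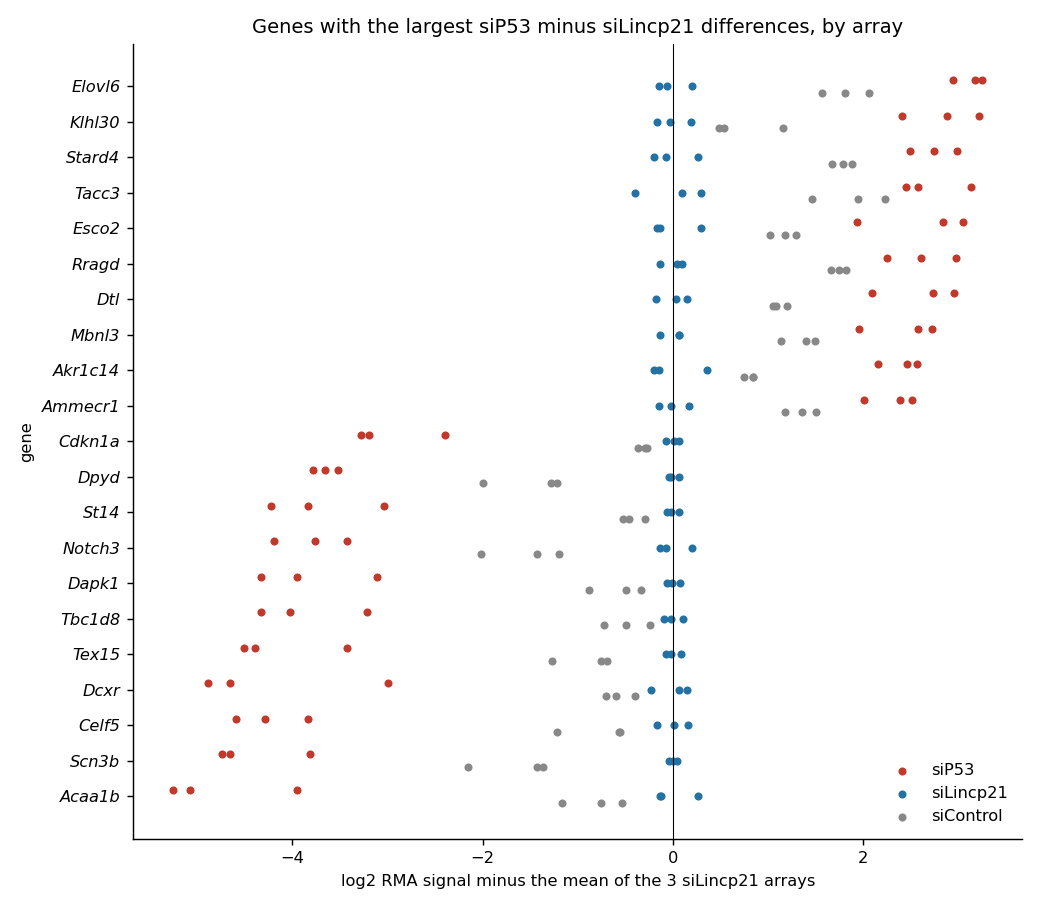
Log2 RMA signal minus the mean of the 3 siLincp21 arrays (horizontal axis) for the 10 genes with the highest and the 10 with the lowest differences, and for Cdkn1a (rows). Points are arrays of the siP53 (red), siLincp21 (blue) and control (grey) groups. The siP53 arrays lie apart from the siLincp21 arrays in every row, which the choice of the 10 highest and 10 lowest genes required. Replicate 2 is the siP53 array nearest to the siLincp21 arrays in 9 of the 10 lowest genes, Dpyd being the exception.

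Beside Elovl6 and Stard4, the 10 genes with the largest positive differences, taken among genes whose arrays did not overlap, came from several functions. Klhl30, of the kelch-like family, measured 7.55, 7.08 and 7.89 on the siP53 arrays, and 4.64, 4.50 and 4.86 on the siLincp21 arrays (2.84, SE 0.21, adjusted p = 7.38e-05). Tacc3, which stabilises spindle microtubules, measured 8.79, 9.34 and 8.66 with siP53, and 6.51, 6.31 and 5.81 with siLincp21 (2.73, SE 0.23, adjusted p = 0.000133). Esco2, the acetyltransferase of cohesin, differed by 2.61 (SE 0.28) and Dtl by 2.59 (SE 0.22). Rragd, a Rag GTPase of amino acid signalling to mTORC1, differed by 2.61 (SE 0.18) on its brightest probe set and by 0.19 and 0.30 on its others. Mbnl3, a muscleblind splicing regulator, differed by 2.42 (SE 0.20), Akr1c14, an aldo-keto reductase, by 2.40 (SE 0.18) and Ammecr1 by 2.30 (SE 0.16). Dimmer probe sets gave smaller differences for Tacc3 (0.67 and 1.72), Esco2 (0.60), Dtl (0.49 to 0.64), Mbnl3 (0.79 and 1.21) and Ammecr1 (0.94). In all of these genes the control arrays lay between the siP53 and siLincp21 arrays.

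Among the 10 most negative differences several genes came down to values near the filter limit with siP53. Acaa1b, a peroxisomal thiolase, measured 4.48, 5.78 and 4.65 on the siP53 arrays, and 9.59, 9.61 and 9.99 on the siLincp21 arrays (-4.76, SE 0.32, adjusted p = 5.79e-05). Scn3b, a sodium channel subunit, measured 4.67, 5.60 and 4.75 with siP53, and 9.37, 9.45 and 9.41 with siLincp21 (-4.40, SE 0.23, adjusted p = 2.73e-05). Its control arrays (8.04, 7.26 and 7.98) lay between. Dcxr, a carbonyl and xylulose reductase, measured 7.59, 9.25 and 7.35 with siP53, and 12.31, 12.39 and 12.01 with siLincp21 (-4.17, SE 0.45, adjusted p = 0.000388). On siP53 replicate 2 these genes were higher than on the other siP53 arrays. Celf5, an RNA-binding protein, differed by -4.24 (SE 0.20), Tex15, a gene of germ cells, by -4.10 (SE 0.27) and Tbc1d8 by -3.85 (SE 0.26). Dapk1, a kinase that promotes cell death, differed by -3.80 (SE 0.28), Notch3, a receptor of the Notch family, by -3.79 (SE 0.20), St14, the protease matriptase, by -3.69 (SE 0.27) and Dpyd, which breaks down pyrimidines, by -3.66 (SE 0.11). Other probe sets differed by -3.21 and -0.07 for Dpyd, -2.12 for Scn3b, -1.77 for Notch3, -1.98 for Dapk1 and -2.56 for Tbc1d8. The lowest difference of all, -5.59, belonged to 1700007K13Rik, a gene without a proper symbol that was named after its value was seen.

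Interferon-stimulated genes showed no common direction. Of 40 tested genes 7 were higher and 7 lower with siP53 (17.5% each, against 12.7% and 16% of all tested genes), with a median of 0.16; 3 or fewer were higher, and 3 lower, without siP53 replicate 1, siLincp21 replicate 1 or siLincp21 replicate 2, and 11 were lower without siP53 replicate 2. Tap1, a peptide transporter of antigen presentation that also stands among the p53 targets, measured 5.81, 6.57 and 6.16 on the siP53 arrays, and 9.16, 9.17 and 9.29 on the siLincp21 arrays (-3.03, SE 0.19, adjusted p = 4e-05). Its other probe sets differed by -0.29 to 0.09. Trim21, a cytosolic antibody receptor, differed by -1.33 (SE 0.16) and Ifi35 by -0.97 (SE 0.13), whereas the chemokine Cxcl10 was higher (0.66, SE 0.12, adjusted p = 0.00609). Of 27 tested chemokines, cytokines and NF-kB genes 7 were higher (25.9%) and 4 lower (14.8%, close to the 16% of all tested genes). Only 3 were higher without siP53 replicate 1, siLincp21 replicate 1 or siLincp21 replicate 2. Icam1, an adhesion molecule for leukocytes, measured 4.06, 4.97 and 4.20 with siP53, and 8.0, 7.96 and 8.11 with siLincp21 (-3.61, SE 0.22, adjusted p = 4.16e-05). The neutrophil chemokines Cxcl5 (2.13, SE 0.17) and Cxcl1 (1.31, SE 0.14) were higher, and the cytokine Il11 was lower (-0.97, SE 0.10).

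Secreted and surface proteins of fibroblasts follow. Of 21 tested matrix proteases and their inhibitors 11 were lower with siP53 (52.4%) and 3 higher (14.3%), with a median of -0.51. Mmp3, stromelysin, measured 10.18, 10.46 and 10.31 on the siP53 arrays, and 11.82, 11.80 and 11.78 on the siLincp21 arrays (-1.48, SE 0.11, adjusted p = 7.66e-05). Mmp2, a gelatinase, differed by -1.07 (SE 0.10), and its control arrays (10.91, 10.85 and 10.91) lay closer to siP53. Reck, a membrane inhibitor of metalloproteases, differed by -1.33 (SE 0.21), and Adamts5, which cleaves aggrecan, by 1.99 (SE 0.14), with other probe sets at 0.14 to 2.18. Of 37 extracellular matrix genes 5 were higher and 4 lower (10.8%), with a median of 0.01, shares close to or below the 12.7% and 16% of all tested genes; without siP53 replicate 2 there were 8 higher, without any 1 of siP53 replicate 1 and siLincp21 replicates 2 and 3 there were 3 higher, and without siP53 replicate 1 or any 1 siLincp21 array 2 lower. Lox, which crosslinks collagen, was higher with siP53 (1.26, SE 0.10), as was Col8a1 (1.23, SE 0.19), and Vcan, a large proteoglycan, was lower (-1.36, SE 0.10), as was Col11a1 (-0.76, SE 0.10). Other probe sets of Vcan differed by -1.26 to -0.13. The control arrays of Col11a1 (8.32, 8.68 and 8.40) lay below both groups.

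Of 42 growth factors and receptors 10 were higher (23.8%, against 12.7% of all tested genes) and 9 lower (21.4%, against 16%), with a median of 0.02. There were 5 lower without siP53 replicate 1, and 4, 5 and 5 higher without siP53 replicate 1, siLincp21 replicate 1 and siLincp21 replicate 2. Pdgfa, a platelet-derived growth factor, measured 8.61, 8.35 and 8.78 on the siP53 arrays, and 10.06, 9.93 and 10.27 on the siLincp21 arrays (-1.51, SE 0.15, adjusted p = 0.000276). Angpt1, angiopoietin 1, was higher (1.05, SE 0.12). Tgfa, an EGF receptor ligand, differed by -2.05 (SE 0.12) and Gas6, a ligand of TAM receptors, by -1.56 (SE 0.20), but other probe sets of these genes differed by 0.03 and 0.09 and by 0.09. Of 31 contractile and TGF-beta response genes 4 were higher (12.9%) and 5 lower (16.1%), shares close to those of all tested genes (12.7% and 16%). Without siP53 replicate 2 there were 7 higher and 11 lower; without siP53 replicate 1 there were 1 and 2, without siLincp21 replicate 1 there were 0 and 3, 1 was higher without siLincp21 replicate 2 or siP53 replicate 3, and 2 were lower without siLincp21 replicate 3. Inhba, a subunit of activin, differed by -1.08 (SE 0.15) with another probe set at 0.13, Ltbp2, a latent TGF-beta binding protein, by -1.07 (SE 0.13), Tgfb3 by -0.48 (SE 0.11) and the inhibitory Smad6 by 0.72 (SE 0.16).

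Immediate early genes and MAP kinase feedback genes were lower more often than higher, with a median of -0.28. Of 35 tested genes 12 were lower with siP53 (34.3%, against 16% of all tested genes) and 4 higher (11.4%, against 12.7%). Leaving out siP53 replicate 1 or siLincp21 replicate 1 gave 7 lower and 2 higher, and 2 were higher without siLincp21 replicate 2 or siP53 replicate 3. Dusp6, a phosphatase of ERK, measured 8.65, 8.52 and 8.90 on the siP53 arrays, and 9.80, 9.70 and 9.71 on the siLincp21 arrays (-1.05, SE 0.12, adjusted p = 0.00065). Its control arrays (11.15, 10.71 and 10.96) lay above both groups, as did those of Egr3 (9.66, 8.36 and 9.30), which differed by -1.46 (SE 0.18) with another probe set at 0.13. Phlda1 differed by -0.70 (SE 0.10) and Klf2, a transcription factor, by 1.01 (SE 0.10).

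Of 27 antioxidant genes under NRF2, a transcription factor activated by oxidants, 10 were lower with siP53 and 2 higher (Me1, 0.78, and Tkt, 0.41), with a median of -0.39. The shares were 37% lower and 7.41% higher, against 16% and 12.7% of all tested genes. Without siP53 replicate 2 there were 16 lower; 1 was higher without any 1 of the other arrays. Ephx1, an epoxide hydrolase that is also among the p53 targets, measured 10.39, 11.33 and 10.38 on the siP53 arrays, and 12.77, 12.77 and 12.53 on the siLincp21 arrays (-1.99, SE 0.25, adjusted p = 0.000858). Gclc, the enzyme that limits glutathione synthesis, differed by -1.32 (SE 0.10), the glutathione transferase Gsta2 by -1.24 (SE 0.17) and the carbonyl reductase Cbr3 by -0.91 (SE 0.11).

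RNA-binding and chromatin proteins bear on the study because hnRNP-K was knocked down in other arrays of the same experiment. Hnrnpk itself measured 12.71, 12.10 and 12.61 on the siP53 arrays, and 12.37, 11.91 and 12.31 on the siLincp21 arrays, which overlap, and the difference did not pass (0.28, SE 0.19, adjusted p = 0.33). Replicate 2 was the lowest array in both groups and among the control arrays (12.68, 12.03 and 12.47). Without siP53 replicate 2 the difference was 0.47 with an adjusted p of 0.024. Of 16 alternative fits 2 called Hnrnpk, this one included. Of 41 hnRNP and splicing factors 11 were higher with siP53 (26.8%, against 12.7% of all tested genes) and none was lower, with a median of 0.30. The higher count was 23, with 2 lower, without siP53 replicate 2, was 5 without siP53 replicate 1, siLincp21 replicate 1 or siLincp21 replicate 2, and 7 without siLincp21 replicate 3. Srsf3 measured 11.56, 11.63 and 11.45 with siP53, and 10.91, 10.77 and 10.68 with siLincp21 (0.76, SE 0.11, adjusted p = 0.00181), and the control arrays (11.31, 11.39 and 11.44) lay closer to siP53. Khdrbs1, the splicing regulator Sam68, differed by 0.73 (SE 0.11) and Srsf2 by 0.72 (SE 0.12). Other probe sets differed by 0.15 to 1.14 for Srsf3, 0.06 to 0.83 for Khdrbs1 and 0.15 to 0.44 for Srsf2. Of 38 chromatin repressors 10 were higher and 4 lower (Jarid2, Eed, Ezh1 and Ehmt2, -0.72 to -0.58), with 6 and 5 higher without siP53 replicate 1 and siLincp21 replicate 2. The shares were 26.3% higher and 10.5% lower, against 12.7% and 16% of all tested genes. Cbx5, heterochromatin protein HP1 alpha, measured 9.27, 8.98 and 9.21 with siP53, and 6.75, 6.64 and 7.18 with siLincp21 (2.30, SE 0.16, adjusted p = 6.95e-05), with other probe sets from -0.12 to 2.52. The histone methyltransferase Suv39h2 (1.21, SE 0.14) and the Polycomb protein Suz12 (1.12, SE 0.17) were higher, and Eed, another Polycomb protein, differed by -0.65 (SE 0.10) with a second probe set at -0.02.

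Around Cdkn1a, where lincRNA-p21 is transcribed, genes were called about as often as elsewhere. Of 15 tested neighbours, Cdkn1a included, 2 were higher (Srsf3 and Ppil1) and 2 lower (Cdkn1a and Mapk13), 13.3% each against 12.7% and 16% of all tested genes, with a median of 0.00. Ppil1, a peptidyl-prolyl isomerase of the spliceosome, differed by 0.68 (SE 0.15, adjusted p = 0.011). Mapk13, a p38 kinase, measured 9.43, 9.88 and 9.46 on the siP53 arrays, and 10.10, 10.19 and 10.16 on the siLincp21 arrays (-0.56, SE 0.14, adjusted p = 0.0207), and lost its call without any 1 of the arrays except siP53 replicate 2, which left Cdkn1a as the lower gene. In the remaining lists 2 of 35 amino acid stress genes were higher (5.71%) and 5 lower (14.3%), and 6 of 31 glycolysis and hypoxia genes were higher (19.4%) and 3 lower (9.68%). Of 31 proteasome subunits 2 were higher (6.45%), of 12 ribosomal proteins 1 was lower (8.33%), of 3 replication-dependent histones 2 were lower (H2aw, -0.57, and H1f2, -0.41), and of 16 genes of the siRNA machinery and double-stranded RNA sensing 3 were higher (18.8%) and 1 lower (6.25%). Without siP53 replicate 2 the amino acid stress genes gave 6 higher and 11 lower, the proteasome subunits 8 and 8, the ribosomal proteins 0 and 4 and the siRNA machinery 4 and 2. Without siP53 replicate 1, siLincp21 replicate 1 or siLincp21 replicate 2 none of the amino acid stress genes, proteasome subunits or ribosomal proteins was higher, and 3 glycolysis genes were. Without siLincp21 replicate 3, 1 amino acid stress gene and no proteasome subunit was higher, and without siP53 replicate 3, 1 proteasome subunit was. Without any 1 siLincp21 array 3 amino acid stress genes were lower. Of the histones none was lower without siLincp21 replicate 1 and 1 was lower without siP53 replicate 1, siLincp21 replicate 2 or siLincp21 replicate 3. Without any 1 array other than siP53 replicate 2 no ribosomal protein was lower.

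The control arrays lay between the knockdowns for 1069 of the 1614 genes higher with siP53 (66.2%) and for 1374 of the 2022 lower genes (68%), against 38.3% of all tested genes. They were nearer to siLincp21 for 60.3% of the higher and 61.9% of the lower genes, against 56.2% of all tested genes. These positions share the siP53 and siLincp21 arrays with the comparison itself and are given as a description.

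The lincP21KD experiment holds the same contrast on 6 other arrays: p53 LSL/LSL fibroblasts with AdenoCRE, siP53 (3 arrays) or siLincp21 (3 arrays) and the same doxorubicin treatment. There 973 genes were higher with siP53 (7.68%) and 1199 lower (9.46%), together 2172 (17.1%). Of the genes called in the hnRNPKKD experiment, 474 were higher in both, which is 29.4% of those higher in hnRNPKKD and 48.7% of those higher in lincP21KD. Lower in both were 809, or 40% and 67.5%, and 45 genes were called in opposite directions. Of the 1283 genes called the same way, 1181 (92%) differed more in hnRNPKKD, with a median size of 1.01 there and 0.51 in lincP21KD. In lincP21KD 1209 genes were called without siLincp21 replicate 1 and 1348 without siP53 replicate 2. Without siP53 replicate 2 of hnRNPKKD, 554 genes were higher and 872 lower in both, and 110 were opposite; the opposite count was 17, 19, 20 and 25 without siP53 replicate 1 and siLincp21 replicates 1, 2 and 3.

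Among the genes called in both experiments with the largest differences, Dcxr differed by -4.17 in hnRNPKKD and by -3.16 (SE 0.13) in lincP21KD, Celf5 by -4.24 and -2.85, Acaa1b by -4.76 and -2.69, Dpyd by -3.66 and -2.97, Tbc1d8 by -3.85 and -2.32 and Tex15 by -4.10 and -2.26. Cox6b2, a testis form of a cytochrome oxidase subunit, differed by -3.62 (SE 0.49) and -2.34, and Cdc42bpg, a kinase under Cdc42, by -2.96 (SE 0.12) and -2.14. Cdkn1a differed by -2.95 and -2.08, and its lincP21KD arrays read 10.53, 10.31 and 10.68 with siP53, and 12.66, 12.57 and 12.52 with siLincp21.

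The contrast itself differed between the experiments for 1952 genes (15.4%) in a joint fit of the 12 arrays, with 879 positive (6.94%) and 1073 negative differences (8.47%), and for 4220 without siP53 replicate 2 of hnRNPKKD. By this test 42 of the 49 mitotic genes were more positive in hnRNPKKD, where the median was 1.42 and 46 were called, against 0.22 and 12 called in lincP21KD. Of the 47 replication genes 28 did, with medians of 0.94 and 0.14, and 37 of 54 p53 targets had a more negative value in hnRNPKKD, with medians of -2.08 and -1.04. Of the 27 sterol genes 5 were more positive and 1 more negative in hnRNPKKD, with 23 and 22 called higher and medians of 0.94 and 0.71. Of the 40 interferon-stimulated genes 10 were more negative in hnRNPKKD, where 7 were higher, against 20 higher in lincP21KD with a median of 0.34. Top2a is an example for mitosis: its lincP21KD difference was 0.14 (SE 0.12, adjusted p = 0.479), and the difference between experiments was 1.45 (SE 0.16, adjusted p = 0.0001).

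Several named genes that differed between the experiments had low group means in lincP21KD, 3.64 to 5.69 over Scn3b, Icam1, Plek2, Nipal4 and St14, while those of Dapk1 were 6.23 and 7.33. Icam1 differed by -3.61 in hnRNPKKD and by -0.28 in lincP21KD (difference -3.33, SE 0.29, adjusted p = 2.24e-05), Scn3b by -4.40 and -0.89, Plek2, a pleckstrin, by -3.40 and -0.19, Nipal4 by -3.35 (-0.87 on another probe set) and -0.30 and St14 by -3.69 and -0.99. In lincP21KD the siP53 and siLincp21 means of Icam1 were 4.74 and 5.02, near the filter limit in both groups. Cemip, which takes part in hyaluronan breakdown, changed sign: it was higher in hnRNPKKD, with 9.09, 8.30 and 9.10 on the siP53 arrays, and 7.23, 6.81 and 7.42 on the siLincp21 arrays (1.68, SE 0.25), and lower in lincP21KD (-1.43, SE 0.13). Its other probe sets differed by -0.09 to 0.00 in hnRNPKKD.

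**Figure D4:**
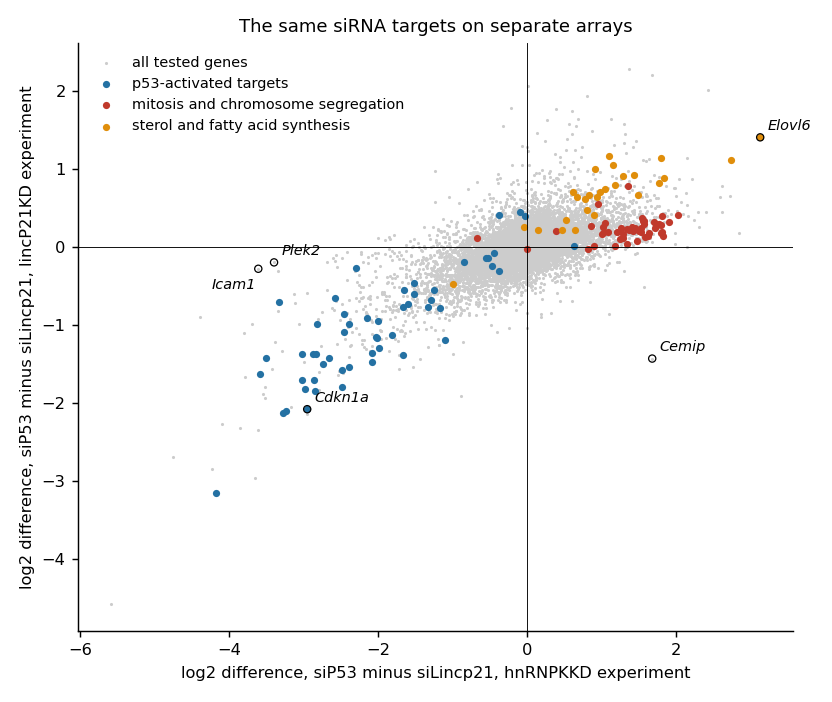
Difference between siP53 and siLincp21 (log2) in the hnRNPKKD experiment (horizontal axis) and in the lincP21KD experiment (vertical axis), with 1 point for each of the 12674 tested genes. The p53 targets (blue) lie low on both axes, with medians of -2.08 and -1.04, while the mitotic genes (red) spread to the right with medians of 1.42 and 0.22. Cemip lies at 1.68 and -1.43.

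A time course in the same kind of cells set p53 restoration against its absence. AdenoCRE arrays, with p53 restored, were compared with AdenoGFP arrays, without it, at 0 h and at 1, 3, 6 and 9 h after 500 nM doxorubicin was added. The 0 h pair had no doxorubicin and is part of the average over times. Each virus had 1 array per time, and time was a block in the fit. It shares no array with the siRNA comparison, but Cre and GFP differ between the viruses, so p53 and the viruses cannot be told apart there. With AdenoCRE 1636 genes were higher (12.9%) and 791 lower (6.24%), together 2427; without the 3 h, 6 h or 9 h pair 1146, 1444 and 1511 genes were called.

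Of the 2022 genes lower with siP53 than with siLincp21, 854 (42.2%) were higher with AdenoCRE, against 12.9% of all tested genes, and 27 were lower. These 854 are 52.2% of the genes higher with AdenoCRE. Of the 1614 genes higher with siP53, 309 (19.1%) were lower with AdenoCRE, against 6.24% of all tested genes, which is 39.1% of the genes lower with AdenoCRE, and 77 were higher. Without siP53 replicate 2 the shares were 32.3% and 16.8%. For differences of at least 2-fold, 400 of 634 lower genes (63.1%) were higher with AdenoCRE and 143 of 444 higher genes (32.2%) were lower with it.

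By group, 46 of 54 p53 targets were higher with AdenoCRE and none lower, with a median of 1.51, and Cdkn1a was higher by 3.85 (SE 0.15, adjusted p = 3.5e-05), with 3.50, 3.46, 3.96, 4.49 and 3.83 at the 5 times in order. Of 49 mitotic genes 23 were lower with AdenoCRE and 1 higher, with a median of -0.38, of 47 replication genes 15 were lower and of 27 sterol genes 17 were lower, with a median of -0.50 for the sterol genes. Over all tested genes 12.9% were higher with AdenoCRE and 6.24% lower. Elovl6 differed by -0.65 (SE 0.12, adjusted p = 0.0102). Other genes did not run opposite to the siRNA contrast: Klhl30, higher with siP53 by 2.84, was also higher with AdenoCRE (1.01, SE 0.15), and Dpyd, lower with siP53 by -3.66, was not called there (0.50, SE 0.25, adjusted p = 0.199). Cxcl5 (-1.54, SE 0.14) and Adamts5 (-0.81, SE 0.17) were lower with AdenoCRE and higher with siP53.

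**Figure D5:**
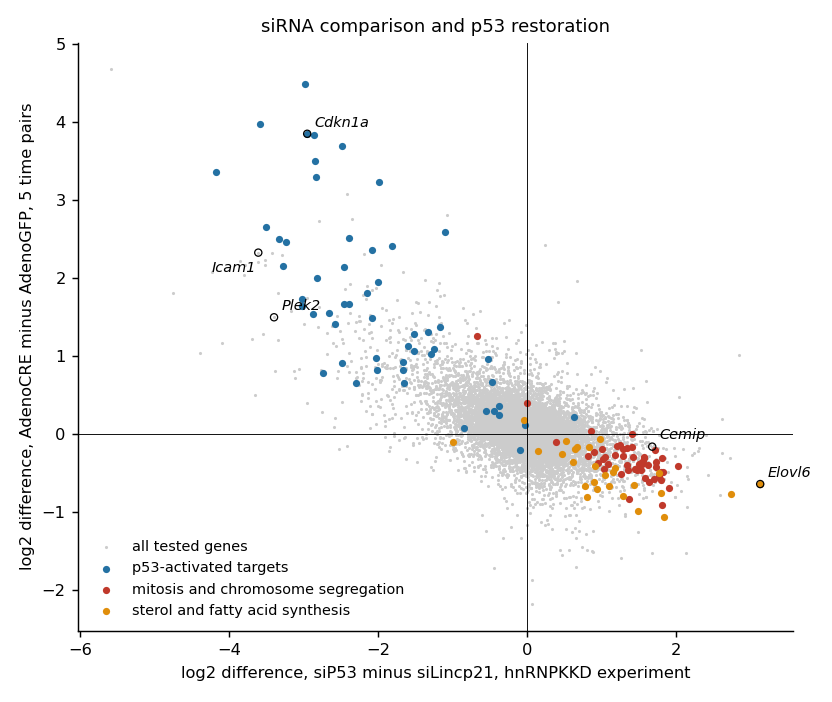
Difference between siP53 and siLincp21 in the hnRNPKKD experiment (horizontal axis, log2) and between AdenoCRE and AdenoGFP over 5 time pairs (vertical axis, log2), with 1 point for each of the 12674 tested genes. The p53 targets (blue) lie at the upper left, with medians of -2.08 and 1.51, and the mitotic (red) and sterol (orange) genes at the lower right, with medians of 1.42 and -0.38 and of 0.94 and -0.50.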

How the data were processed

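Affymetrix arrays were used, and the log2 values deposited by the authors were analysed as they stand. They are RMA values per the submitters' processing notes (version not given in the sources used here). Of 45101 probe sets, 34958 carried 1 gene symbol, 932 several and 9211 none in the platform annotation; 34754 were matched to a current gene entry. For each gene the brightest probe set, by the mean of the 30 arrays, was kept, and the lowest 40% of probe sets by that mean (below log2 4.544) were left out, which left 12674 genes. Groups were compared with limma 3.58.1 in R 4.3.3 (lmFit and eBayes) on the 6 arrays, and likewise on the 6 lincP21KD arrays, on all 12 for the difference between experiments and on the 10 time course arrays with time as a block. The fit was tested on simulated data.

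The members, gene lists and tests were chosen with earlier results of these data known. Named genes are Cdkn1a and Hnrnpk, the 10 highest and 10 lowest called genes whose groups do not overlap, up to 4 called members of each list with the smallest adjusted p, the 8 called in the same direction in both experiments with the largest smaller difference, and the 6 with the largest difference between experiments. Predicted genes that lack a proper symbol were not named by this rule. The number of arrays limits the precision. Alternatives changed the filter, probe set choice, scaling, variance model, array weights, threshold, fitted arrays and replicate block, and left out each array in turn. No 2 of the compared arrays held identical values. Promoters came from RefSeq (GRCm38.p6).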

Additional observations from a re-analysis of the deposited data

Results flagged for a closer look

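The contrast between siP53 and siLincp21 differed between the hnRNPKKD and lincP21KD experiments for 76 of the 97 named genes, by limma's test of the difference in a joint fit of the 12 arrays (called at an adjusted p below 0.05 over all tested genes, a rule that calls 15.4% of them). The named genes were chosen for their values in these experiments, so this number is a description. Values are the hnRNPKKD difference minus the lincP21KD difference on the log2 scale. What sets the experiments apart beyond their arrays was not tested.

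Negative values, more negative in hnRNPKKD or less positive there, were found for Scn3b (-3.51), Icam1 (-3.33), Plek2 (-3.21), Nipal4 (-3.05), Dapk1 (-2.71), St14 (-2.71), Notch3 (-2.12), Acaa1b (-2.07), Tex15 (-1.84), Tbc1d8 (-1.53), Celf5 (-1.39) and Cdc42bpg (-0.82) among the genes with the lowest differences. Among p53 targets, regulators and cell death genes the values were negative for Abcb1a (-2.03), Tap1 (-1.66), Slc19a2 (-1.38), Fas (-1.32), Polk (-1.25), Ddit4l (-1.15), Mdm2 (-1.14), Ppm1d (-1.03), Perp (-1.0), Sesn2 (-0.92), Cdkn1a (-0.88), Rb1 (-0.88), Ercc5 (-0.87), Apaf1 (-0.84) and Rchy1 (-0.60). They were also negative for Tgfa (-1.98), Dusp6 (-1.15), Trim21 (-1.14), Il11 (-1.14), Ltbp2 (-1.09), Mmp3 (-0.98), E2f5 (-0.93), Cxcl10 (-0.90), Gclc (-0.88), Gas6 (-0.81), Ifi35 (-0.79), Pdgfa (-0.77), Cbr3 (-0.68), Inhba (-0.59), Mmp2 (-0.56) and Eed (-0.44).

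Positive values were found among the genes of the cell cycle for Tacc3 (2.07), Dtl (1.94), Esco2 (1.82), Cep55 (1.62), Pola1 (1.61), Racgap1 (1.52), Nek2 (1.46), Top2a (1.45), E2f7 (1.39), Gins1 (1.34), Exo1 (1.25), Mcm10 (1.24), Asf1b (1.15) and Clspn (1.12). They were also found for Cemip (3.11), Klhl30 (2.66), Rragd (2.15), Ammecr1 (2.04), Akr1c14 (1.95), Adamts5 (1.95), Cbx5 (1.85), Elovl6 (1.72), Stard4 (1.62), Cxcl5 (1.44), Col8a1 (1.41), Lox (1.19), Suv39h2 (0.91), Smad6 (0.77), Cxcl1 (0.75), Suz12 (0.67), Srsf3 (0.55), Khdrbs1 (0.51) and Klf2 (0.43). Cemip differed in sign between the experiments, with 1.68 in hnRNPKKD and -1.43 in lincP21KD.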

How the results depend on the processing

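The 96 called named genes kept their sign under each of up to 16 alternatives run on them, and 90 stayed called under all of theirs. For 9 of the 96 only 15 were run, since they fell below the limit with the lowest 60% of probe sets left out. With the probe set and the filter taken from the 6 compared arrays, Col11a1 (adjusted p 0.0508) and E2f5 (-0.01, adjusted p 0.97) were not called, and with the mean of the probe sets Srsf2 was not (0.36, adjusted p 0.212). Mapk13, Tgfb3 and Smad6 lost their calls without 1 array. In the hnRNPKKD comparison array weights called 8612 genes (3996 higher and 4616 lower), with weights from 0.129 to 38.2 that rest on siP53 replicate 1. An adjusted p below 0.01 called 2131 (888 and 1243), and a fold of at least 2 called 1078 (444 and 634). Without any 1 array, 2297 to 5803 were called, 963 to 2667 higher and 1317 to 3136 lower.

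In lincP21KD an adjusted p below 0.01 called 965 (381 and 584), a fold of at least 2 called 159 (54 and 105), and leaving out any 1 array called 1209 to 1886 (498 to 844 higher and 711 to 1042 lower). Centring each array there called 748 higher and 1526 lower, 32.9% higher against 44.8% without it. For the difference between experiments array weights called 6325 (2780 and 3545), and leaving out any 1 array called 1429 to 4220 (635 to 1898 and 785 to 2322). For AdenoCRE against AdenoGFP, leaving out time as a block called 1304 (949 and 355). Without 1 time pair 1146 to 2055 were called (817 to 1397 higher and 329 to 658 lower), with 1146 (817 and 329) without 3 h, 1444 (968 and 476) without 6 h and 1511 (413 lower) without 9 h. Quantile normalization there gave 58.4% higher against 67.4%.

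Replicates carry matching numbers, and the main fit did not pair arrays by them. The correlations of same-numbered arrays were -0.033, 0.631 and 0.694 in hnRNPKKD and 0.212, 0.054 and 0.341 in lincP21KD. The same-numbered arrays of replicates 2 and 3 in hnRNPKKD thus varied together, and these values do not settle whether the numbers pair the arrays. With the replicate block 5144 genes were called in hnRNPKKD (2313 and 2831), 2701 in lincP21KD and 3015 for the difference between experiments (1357 and 1658). Of the counts by gene list, 582 stayed the same or moved by up to 1.5 times and 98 moved by more under the alternatives that keep all arrays. With 1 array left out, 281 stayed within 1.5 times and 127 moved by more. Signal near background limits genes such as Acaa1b and Icam1, whose siP53 values lie close to the filter limit. The cause of these shifts was not tested.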
